A study of Mus musculus with 2 samples.

Results

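The mitochondrial respiratory chain and ATP synthase of mouse liver were examined through their nuclear-encoded genes, called OXPHOS genes below. They comprise every probe set annotated to exactly 1 nuclear gene whose symbol begins with Nduf, Uqcr, Cox4, Cox5, Cox6, Cox7, Cox8 or Atp5, or is Sdha, Sdhb, Sdhc, Sdhd, Cyc1 or Cycs. This took 184 of 45101 probe sets and 92 of 18193 genes, located on 19 chromosomes. L-Lpcat3 KO livers carried homozygous floxed Lpcat3 alleles together with Cre driven by the albumin promoter, which is active in hepatocytes. Flox/Flox livers carried the same floxed alleles without Cre, so an effect of the Cre transgene itself and of the loss of Lpcat3 cannot be told apart. All mice were males of 12 weeks on chow diet, and their livers were taken after 6 hr of fasting. RNA of 5 mice was pooled per genotype and hybridized to 1 Affymetrix array, so ratios come without replicates and no test was made.

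Electrons from NADH enter the respiratory chain at complex I and those from succinate at complex II. Ubiquinone carries them to complex III, and cytochrome c passes them on to complex IV, where oxygen is reduced. Complexes I, III and IV pump protons across the inner membrane, and ATP synthase uses the returning protons to make ATP. Most subunits are encoded in the nucleus and the remainder in mitochondrial DNA, which these probe sets do not cover. Hepatocytes are rich in mitochondria and depend on the chain to regenerate the cofactors of fatty acid oxidation during fasting. Lpcat3 places polyunsaturated acyl chains into phosphatidylcholine, a major lipid of the membranes that surround these complexes. The arrays were made to look for transcripts that respond to its loss.

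The Lpcat3 probe set had a signal of 1305 in L-Lpcat3 KO and 3310 in Flox/Flox, 2.54-fold lower, although the files do not say whether its probes lie in the deleted exon. Signals are MAS5 intensities on a linear scale, and a signal under the median of all probe sets (76.4, called the floor) was raised to it before ratios were taken. Across all 12084 genes measured, meaning above the floor on at least 1 array, the median log2 ratio was 0.003. Hepatocyte markers were measured in 10 of 10 cases, with a summed signal of 382595 in L-Lpcat3 KO and 393782 in Flox/Flox and 9 of 10 lower. Markers of Kupffer cells and macrophages, 11 of 11 of them lower, summed to 10842 in L-Lpcat3 KO and 12451 in Flox/Flox, and those of sinusoidal endothelial cells to 8735 in L-Lpcat3 KO and 7639 in Flox/Flox, with 3 of 8 lower. Their part in the OXPHOS ratios was not tested. In pooled whole liver, fewer cells of a type and less RNA per cell cannot be told apart.

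OXPHOS transcripts were close to equal in the pools. Of the 92 genes, 87 were measured by their brightest probe set and 86 were above the floor on both arrays. The median log2 ratio, counted positive where L-Lpcat3 KO was higher, was 0.005. Of the 87 genes, 48 (55.2%) had ratios above 0, compared with 50.7% of all genes measured. In all, 71 (81.6%) lay within 1.1-fold, compared with 46.1% of all genes measured. None reached 1.5-fold in either direction, where 7.23% of all genes did. At 1.2-fold (a log2 ratio of 0.263), 2 were higher and 5 were lower, against a background of 15.6% of all genes higher and 13.7% lower.

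Most OXPHOS genes give bright signals, and ratios of bright genes vary less on these arrays. Above a mean signal of 823, the 10th percentile of the OXPHOS genes, 68 of 78 OXPHOS genes (87.2%) lay within 1.1-fold, compared with 64% of 4844 genes. In this set none was 1.2-fold higher and 2 were 1.2-fold lower, where the background was 5.43% higher and 6.21% lower. At 1.5-fold, 32 of the 4844 genes were higher and 33 lower, with no OXPHOS gene among them. Differences of that size are therefore rare at such signals in any gene. The SD of log2 ratios was 0.099 across these 78 genes and 0.199 across the 4766 other genes above that signal, but their median signals were 11838 for the OXPHOS genes and 2076 for the others. In narrower ranges the SDs lay closer at bright signals but not in every range. Over 20000 they were 0.086 for OXPHOS genes and 0.109 for all genes, and between 10000 and 20000 they were 0.101 and 0.152. Between 5000 and 10000 they were 0.099 for OXPHOS genes and 0.173 for all genes. Between 1000 and 5000 they lay farther apart, at 0.076 for 7 OXPHOS genes and 0.203 for all genes. Genes are not independent replicates, and these SDs describe the arrays and not the variation among mice.

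**Figure D1:**
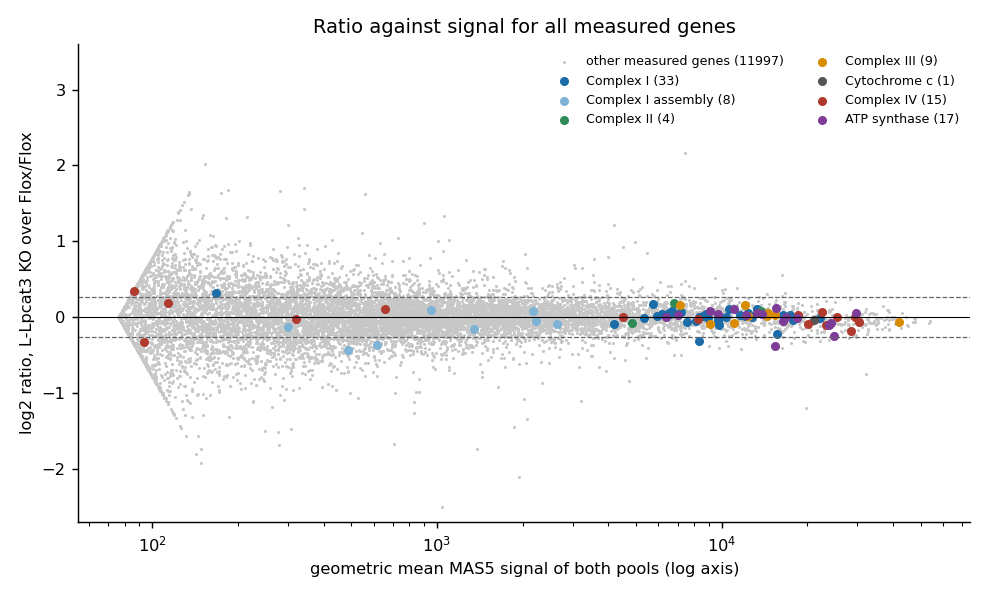
Log2 ratio (y axis, L-Lpcat3 KO to Flox/Flox) plotted over mean MAS5 signal (x axis, log scale, geometric mean of the pools), 1 point per measured gene; grey points are genes outside the OXPHOS set, coloured points OXPHOS genes by complex, and dashed lines mark 1.2-fold. The OXPHOS genes lie at the right of the plot in a narrow band around a median of 0.005, with the dim exceptions toward the left.

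The ratio differed between ranges of signal. The 14 OXPHOS genes with a mean signal over 20000 had a median log2 ratio of -0.07 with 3 above 0, and all 194 genes in that range had a median of -0.04. The 30 OXPHOS genes between 10000 and 20000 had a median of 0.03 with 22 above 0, and the 26 between 5000 and 10000 a median of 0.02 with 16 above 0. The 7 between 1000 and 5000 had a median of -0.08 with 2 above 0, and they include the complex I assembly factors Ndufaf1, Ndufaf4, Ndufaf6 and Ndufaf8. Over all genes, medians were 0.004 between 10000 and 20000, -0.002 between 5000 and 10000 and -0.003 between 1000 and 5000. Whether the brightest signals level off was not tested, so a ratio near 0 at such signals does not by itself show equal RNA.

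Many OXPHOS genes are read by several probe sets, which gave a measure of technical spread within the same RNA pools. At a mean signal of at least 1000, 41 genes had several probe sets, 101 in all. The pooled SD between probe sets of the same gene was 0.115 on the log2 scale, compared with an SD of 0.099 across the 77 OXPHOS genes of that signal. The first SD is over all bright probe sets of 41 genes and the second over the brightest probe set of each of 77 genes. They therefore cannot show whether genes differ by more than probe sets reading the same gene do. In 24 of the 41 genes the probe sets did not all lie on the same side of 0, in 7 all were above 0 and in 10 all were below. Counted singly, 170 OXPHOS probe sets were above the floor on at least 1 array. Of these, 7 were 1.2-fold higher, 10 were 1.2-fold lower and 2 were 1.5-fold higher, compared with 16.9%, 15.5% and 4.4% of all 20650 probe sets of single genes. The median signal was 8417 for the 170 OXPHOS probe sets and 378 for the 20650. Shares among probe sets of like signal were not counted.

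**Figure D2:**
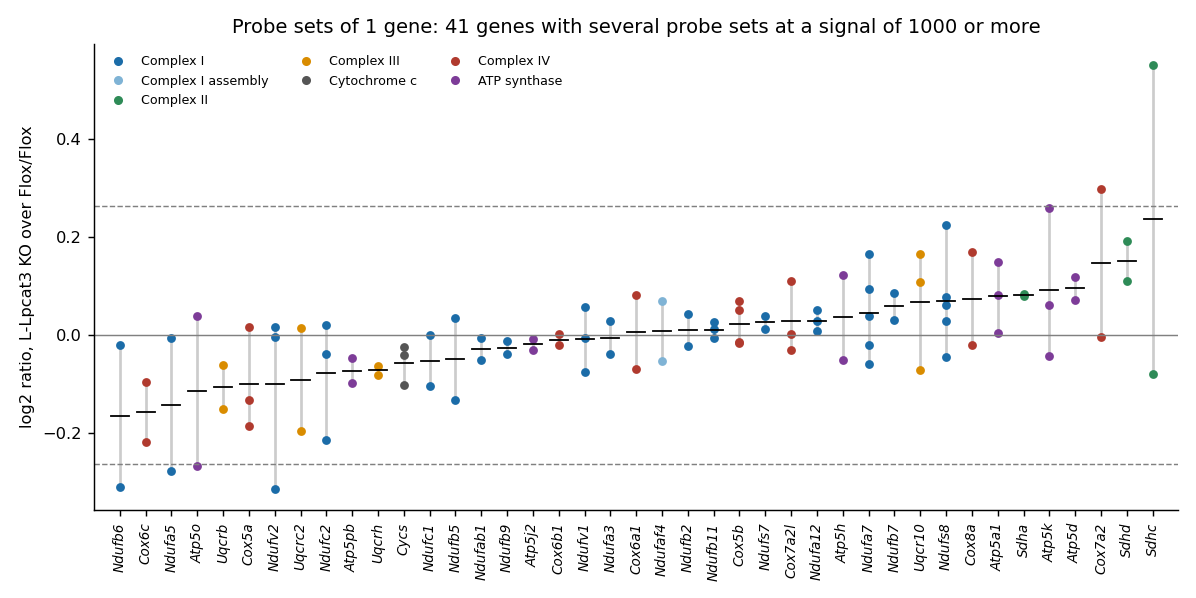
Log2 ratios (y axis, L-Lpcat3 KO to Flox/Flox) for single probe sets of 41 OXPHOS genes (x axis, ordered by mean) with several probe sets at a signal of 1000 or more; points are probe sets coloured by complex, black bars gene means, dashed lines 1.2-fold. Gene means run from -0.17 for Ndufb6 to 0.24 for Sdhc, whose probe sets also lie farthest apart, by 0.63.

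Promoter letters, which the symbol rule did not use, were compared next. Promoters of respiratory genes are known to be bound by NRF1 and by GABP (an ETS factor, also called NRF-2), and some by YY1. RefSeq promoters of GRCm38.p6, from 250 bases before to 50 after the start, were found for 75 of the 92 genes (80 promoters) and searched on both strands. The letters GCGCATGC, the core of the NRF1 motif, or their reverse complement, were in 12 of the 80 OXPHOS promoters (15%) and in 2.71% of all 32851 promoters. CCGGAAG, bound by GABP and other ETS factors, was in 23.8% of the OXPHOS promoters and in 8.86% of all. AAGATGGC, bound by YY1, was in 12.5% of the OXPHOS promoters and in 2.75% of all. Promoters of other genes measured on these arrays held them more often than the average promoter, at 4.78%, 16.3% and 4.11% in the same order. At least 1 of the 3 was in 42.5% of OXPHOS promoters, in 23% of those of other measured genes and in 13.3% of all. The share was 50.7% for mitochondrial ribosomal proteins and 54.8% for cytosolic ribosomal proteins. Holding any of the 3 is therefore not particular to the respiratory chain. This does not carry over to the NRF1 letters in promoters of cytosolic ribosomal proteins. Those promoters held the ETS letters in 42.9% and the NRF1 letters in 4.76%, compared with 15% of OXPHOS promoters for the NRF1 letters. TATAAA was in 11.2% of the OXPHOS promoters, in 7.89% of those of other measured genes and in 13.6% of all.

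The 150 bases before the start are shown for 5 genes, 1 from each of 5 parts of the chain, with none from complex I. All 5 hold a match, whereas only 34 of the 75 OXPHOS genes with promoters hold the NRF1, ETS or YY1 letters. The NRF1 letters are in 12 of these 75 genes and the ETS letters in 19, so genes that hold both are a minority. The 5 are therefore examples of matches and not typical of the set. In the stretches shown, Cycs, Sdhb and Atp5k hold the NRF1 letters, and Uqcr11 and Cox6a1 the ETS letters. Over the whole window searched, Sdhb, Atp5k, Uqcr11 and Cox6a1 each hold both, and Cycs holds the NRF1 letters without the ETS letters. Capitals mark the matched letters, and in Atp5k a pair of overlapping NRF1 matches is marked as 1 run.
Cycs (chr6:50566570-50566719, minus strand): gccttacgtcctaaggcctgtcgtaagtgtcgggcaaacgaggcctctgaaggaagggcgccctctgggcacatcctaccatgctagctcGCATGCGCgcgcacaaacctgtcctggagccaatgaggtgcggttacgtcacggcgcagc
Sdhb (chr4:140961121-140961270, plus strand): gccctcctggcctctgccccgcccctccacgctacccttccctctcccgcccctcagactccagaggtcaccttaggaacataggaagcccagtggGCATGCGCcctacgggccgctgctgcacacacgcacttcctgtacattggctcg
Atp5k (chr5:108434400-108434549, minus strand): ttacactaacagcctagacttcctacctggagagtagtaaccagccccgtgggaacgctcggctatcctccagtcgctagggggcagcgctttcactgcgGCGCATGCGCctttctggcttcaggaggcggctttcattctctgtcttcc
Uqcr11 (chr10:80406822-80406971, minus strand): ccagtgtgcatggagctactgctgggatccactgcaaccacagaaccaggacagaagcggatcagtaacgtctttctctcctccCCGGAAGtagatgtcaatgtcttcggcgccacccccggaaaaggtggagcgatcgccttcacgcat
Cox6a1 (chr5:115348959-115349108, minus strand): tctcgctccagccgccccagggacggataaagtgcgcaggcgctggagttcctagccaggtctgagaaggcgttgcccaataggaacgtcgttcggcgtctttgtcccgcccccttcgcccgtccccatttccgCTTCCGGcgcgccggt
The match begins 60 bases before the start in Cycs, 54 in Sdhb, 50 in Atp5k, 66 in Uqcr11 and 16 in Cox6a1. In Cycs, Sdhb and Cox6a1 the capitals are the reverse complement of the letters searched, and in Atp5k the run holds a match on each strand. A match of letters is a description of the window and not a bound site. The 12 measured genes with the NRF1 letters had a median log2 ratio of 0.03 and the 59 without them 0.00. With the ETS letters the median was 0.03 over 19 genes, compared with 0.00 over 52 without. With the YY1 letters it was -0.04 over 10 genes, compared with 0.02 over 61 without. Some genes held several of these motifs, so the groups overlap.

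By complex, medians lay between -0.004 for complex IV and 0.07 for complex II, apart from the assembly factors of complex I at -0.11. Among the 77 genes with a signal of at least 1000, Ndufb6 and Atp5md were past 1.2-fold, both lower in L-Lpcat3 KO. The levels of different genes are not compared, since each is read by other probes.

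**Figure D3:**
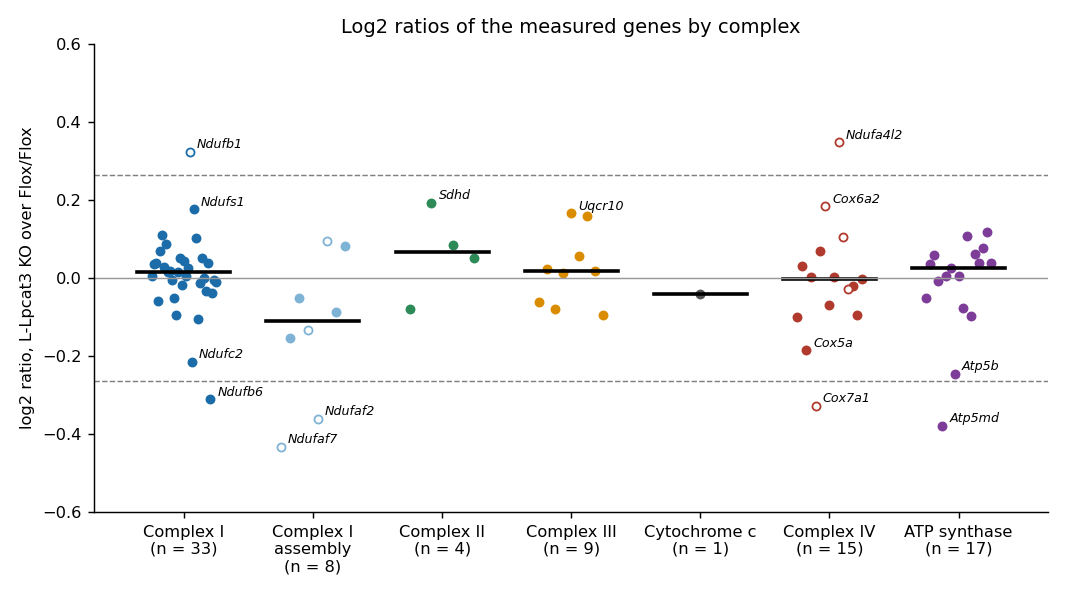
Log2 ratio (y axis, L-Lpcat3 KO to Flox/Flox) of 87 measured OXPHOS genes by complex (x axis, number of genes in parentheses), 1 point per gene by its brightest probe set; open points have a mean signal under 1000, black bars give medians, and the dashed lines stand at 1.2-fold. Medians are 0.02 for complex I, -0.11 for its assembly factors, 0.07 for complex II, 0.02 for complex III, -0.04 for cytochrome c, -0.004 for complex IV and 0.03 for ATP synthase.

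Complex I, the NADH dehydrogenase, had 33 of 34 genes measured, with a median log2 ratio of 0.02, and 29 of the 33 lay within 1.1-fold. Of the 6 core subunits, which carry or surround the redox centres, 5 lay within 1.1-fold by their brightest probe sets. Ndufv1, which binds NADH and the flavin, had a signal of 8965 in L-Lpcat3 KO and 9001 in Flox/Flox (log2 ratio -0.01). Ndufv2, an iron-sulfur subunit beside it, was 12144 in L-Lpcat3 KO and 12001 in Flox/Flox (0.02), whereas a further probe set gave 7425 in L-Lpcat3 KO and 9231 in Flox/Flox (-0.31). Ndufs1, the largest subunit, with several iron-sulfur clusters, was 6078 in L-Lpcat3 KO and 5379 in Flox/Flox (0.18), the highest ratio of the bright complex I genes. Ndufs7 (0.04) and Ndufs8 (0.03) hold the clusters that lead to ubiquinone, although another bright probe set of Ndufs8 gave 10189 in L-Lpcat3 KO and 8720 in Flox/Flox (0.22), and Ndufs3 (-0.00) is a core subunit without a redox centre. The 6 core genes had a median of 0.02, with 4 above 0.

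Accessory subunits, which surround the core and are needed for assembly and stability, numbered 27 measured genes with a median of 0.005. Of these, 15 were above 0 and 24 within 1.1-fold. Ndufb6, a subunit of the membrane arm, was 7475 in L-Lpcat3 KO and 9274 in Flox/Flox, 1.24-fold lower. Its other bright probe set gave 7493 in L-Lpcat3 KO and 7598 in Flox/Flox (-0.02), so the difference rests on 1 probe set. Ndufc2, also in the membrane arm, was 14514 in L-Lpcat3 KO and 16845 in Flox/Flox (-0.21), while its remaining probe sets gave 0.02, -0.04 and 0.21, the last of them dim. Ndufc1, the partner of Ndufc2, had a log2 ratio of -0.10 (9416 in L-Lpcat3 KO and 10122 in Flox/Flox), with 0.00 in its other probe set. At the high end, Ndufa6 was 11054 in L-Lpcat3 KO and 10251 in Flox/Flox (0.11), and Ndufa13, also known as the cell death regulator GRIM-19, was 13807 in L-Lpcat3 KO and 12863 in Flox/Flox (0.10). Ndufb1 was dim, 187 in L-Lpcat3 KO and 150 in Flox/Flox, 1.25-fold higher. Ndufa1 (21994 in L-Lpcat3 KO and 22150 in Flox/Flox, -0.01) and Ndufb9 (17855 in L-Lpcat3 KO and 18014 in Flox/Flox, -0.01), also accessory subunits, were level. Ndufb4 was below the floor in both pools by its single-gene probe set.

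Assembly factors of complex I, which build the enzyme but are not part of it, had a lower median than the subunits. Of 8 genes, 6 had ratios below 0 by their brightest probe sets, and the median log2 ratio was -0.11. The median of this group was not recomputed under other settings. Ndufaf7, a methyltransferase, was 418 in L-Lpcat3 KO and 564 in Flox/Flox, 1.35-fold lower. Ndufaf2, a paralog of the subunit Ndufa12 that acts late in assembly, was 543 in L-Lpcat3 KO and 697 in Flox/Flox, 1.28-fold lower. These were the 2 assembly factors past 1.2-fold, and each has 1 probe set. Their signals lie between the floor and 1000, a range in which the SD of log2 ratios over all 7817 genes was 0.37. Ndufaf6 (-0.15) and Ndufaf5 (-0.13) had ratios below 0 as well, while Ndufaf3 (986 in L-Lpcat3 KO and 923 in Flox/Flox, 0.10) and Ndufaf1 (2237 in L-Lpcat3 KO and 2113 in Flox/Flox, 0.08) had ratios above 0. Ndufaf4, which works together with Ndufaf3, had a log2 ratio of -0.05 by 1 probe set and 0.07 by the other, and Ndufaf8 of -0.09 and 0.22.

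Complex II, succinate dehydrogenase, is also an enzyme of the TCA cycle, and its 4 subunits had a median of 0.07. Sdha, the flavoprotein that oxidizes succinate, was 14122 in L-Lpcat3 KO and 13325 in Flox/Flox (0.08), and its other bright probe set gave 0.08 as well. A dim probe set of Sdha had a log2 ratio of -0.43. Sdhb, the iron-sulfur subunit, was 13765 in L-Lpcat3 KO and 13283 in Flox/Flox (0.05). Sdhd, a membrane anchor that helps to bind ubiquinone, was 7252 in L-Lpcat3 KO and 6346 in Flox/Flox (0.19), and its other probe set had 0.11. Sdhc, the other membrane anchor, was 4704 in L-Lpcat3 KO and 4967 in Flox/Flox (-0.08), whereas its second probe set was 2116 in L-Lpcat3 KO and 1443 in Flox/Flox (0.55). The probe sets of Sdhc therefore give no common direction.

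Complex III passes electrons from ubiquinol to cytochrome c, and its 9 genes had a median of 0.02, with 7 within 1.1-fold. The direction of this median depended on the probe sets used, since it was -0.07 with the mean over the probe sets of each gene. Among the catalytic subunits, Cyc1, or cytochrome c1, was 15476 in L-Lpcat3 KO and 15228 in Flox/Flox (0.02). Uqcrfs1, the Rieske iron-sulfur protein, was 8838 in L-Lpcat3 KO and 9439 in Flox/Flox (-0.09). This was the lowest ratio of the 9 genes, and it rests on 1 probe set. Uqcrc1 and Uqcrc2 form the core that faces the matrix. Uqcrc1 was 12758 in L-Lpcat3 KO and 11419 in Flox/Flox (0.16), and Uqcrc2 was 12432 in L-Lpcat3 KO and 12315 in Flox/Flox (0.01), with -0.20 in its other probe set. The small subunit Uqcr10 was 7542 in L-Lpcat3 KO and 6722 in Flox/Flox (0.17), and its other probe sets gave 0.11 and -0.07. Uqcr11, another small subunit, had a log2 ratio of 0.06. Uqcrb, which lies by the ubiquinone site, was 41216 in L-Lpcat3 KO and 43029 in Flox/Flox (-0.06), and Uqcrh, the acidic hinge protein near cytochrome c1, was 10775 in L-Lpcat3 KO and 11395 in Flox/Flox (-0.08). Both probe sets of Uqcrb and of Uqcrh had ratios below 0.

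Cytochrome c, encoded by Cycs, shuttles electrons between complexes III and IV and also triggers apoptosis when released. Its signal was 20738 in L-Lpcat3 KO and 21345 in Flox/Flox (-0.04). A second bright probe set was 8703 in L-Lpcat3 KO and 9341 in Flox/Flox (-0.10). The third was 8435 in L-Lpcat3 KO and 8583 in Flox/Flox (-0.03). These 3 probe sets all lay below 0, with a mean of -0.06 and a range of 0.077.

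**Figure D4:**
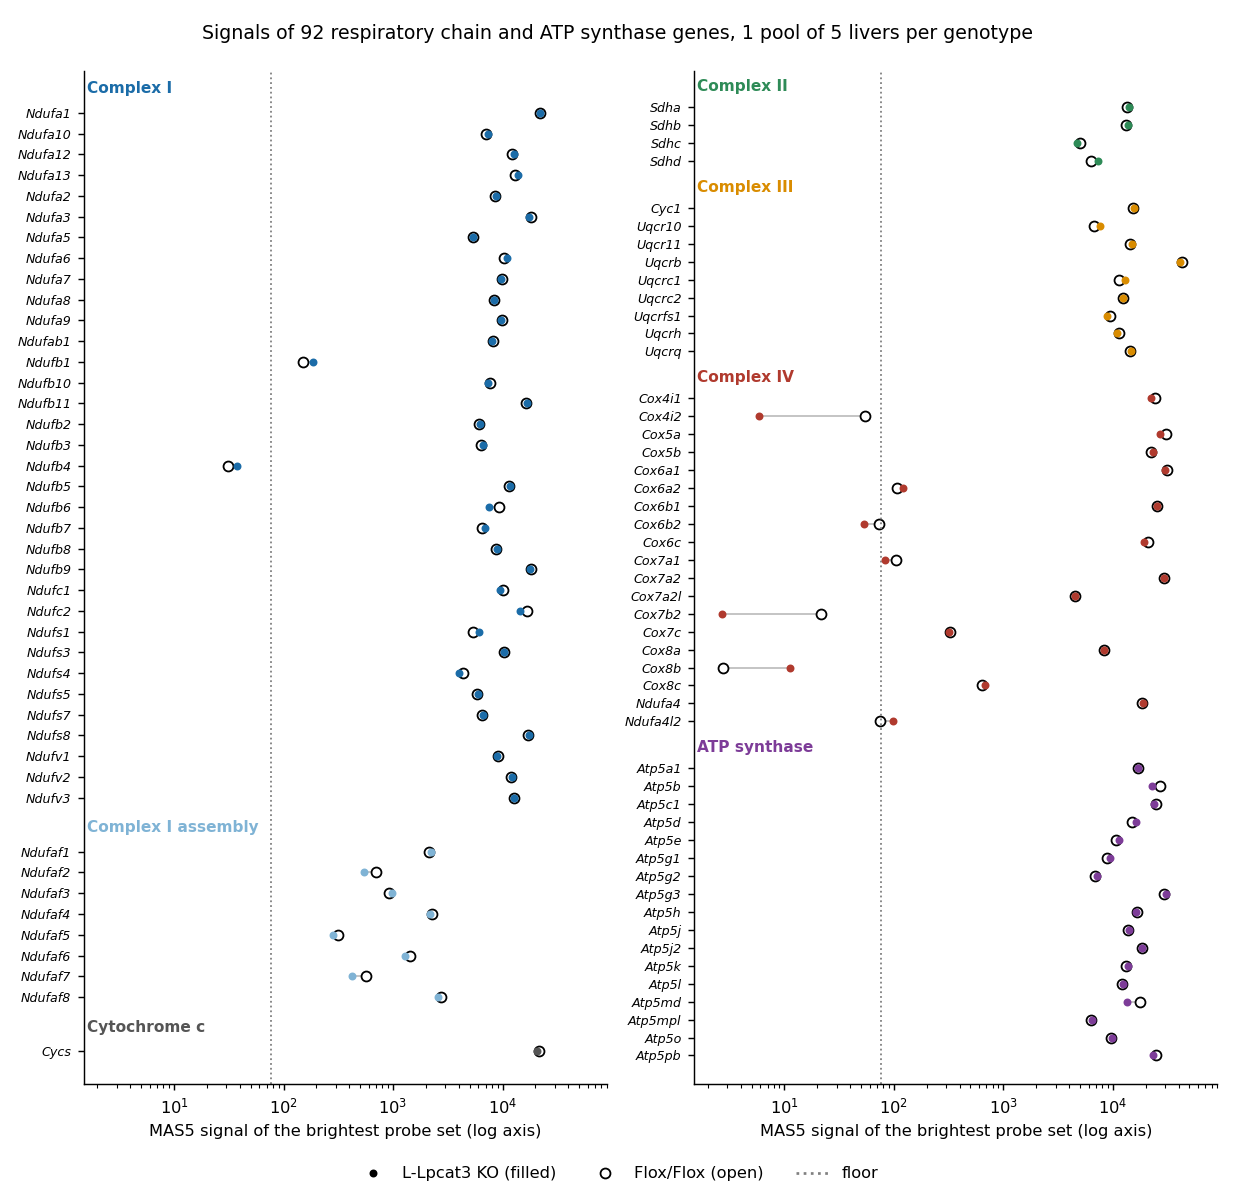
MAS5 signal (x axis, log scale) of 92 OXPHOS genes (y axis, grouped by complex) in L-Lpcat3 KO (filled points) and Flox/Flox (open points), each point 1 pool of 5 livers by the brightest probe set of the gene; the dotted line is the floor of 76.4. Filled and open points overlap for most genes, among them Ndufa1 (21994 in L-Lpcat3 KO, 22150 in Flox/Flox) and Cox7a2 (29301 in L-Lpcat3 KO, 29379 in Flox/Flox), and are farthest apart for genes below the floor, whose ratios were not used.

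Complex IV, cytochrome c oxidase, had 15 of 19 genes measured, with a median of -0.004. Of the 15, 7 were above 0 and 11 within 1.1-fold. Liver uses the widely expressed isoforms of its regulatory subunits. Cox4i1, the largest of its nuclear subunits, was 22441 in L-Lpcat3 KO and 24060 in Flox/Flox (-0.10). Cox5a, which lies on the matrix side, was 26623 in L-Lpcat3 KO and 30273 in Flox/Flox (-0.19), while its other probe sets gave 0.02 and -0.13. Cox5b was 23152 in L-Lpcat3 KO and 22074 in Flox/Flox (0.07) and Cox6c was 19396 in L-Lpcat3 KO and 20731 in Flox/Flox (-0.10), with -0.22 in its other probe set. Cox6a1 (29688 in L-Lpcat3 KO and 31149 in Flox/Flox, -0.07), Cox7a2 (29301 in L-Lpcat3 KO and 29379 in Flox/Flox, -0.004), Cox6b1 (0.00) and Cox8a (-0.02) were level by their brightest probe sets, although the other bright probe set was at 0.30 for Cox7a2 and at 0.17 for Cox8a. Ndufa4, now known as a subunit of complex IV despite its name, was 18762 in L-Lpcat3 KO and 18380 in Flox/Flox (0.03). Cox7a2l, which helps to join complexes III and IV into supercomplexes, had a log2 ratio of 0.00.

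Isoforms of complex IV that belong to other tissues were dim or below the floor, apart from Cox8c. The heart and muscle isoforms Cox6a2 (122 in L-Lpcat3 KO and 107 in Flox/Flox) and Cox7a1 (83.3 in L-Lpcat3 KO and 105 in Flox/Flox, 1.25-fold lower) were dim, and Cox8b was below the floor in both pools. Markers of striated muscle were below the floor in both pools for 9 of 10 genes. The lung isoform Cox4i2 and the testis isoforms Cox6b2 and Cox7b2 were below the floor in both pools. The testis isoform Cox8c had a signal of 683 in L-Lpcat3 KO and 635 in Flox/Flox (0.11), and its other probe set had 183 in L-Lpcat3 KO and 115 in Flox/Flox (0.67). Ndufa4l2, a hypoxia-inducible relative of Ndufa4, was above the floor only in L-Lpcat3 KO (97.2) and below it in Flox/Flox (75.3), at least 1.27-fold higher. At such signals the SD of ratios is large, as given above for the range under 1000.

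ATP synthase had all 17 genes measured, with a median of 0.03, 11 above 0 and 15 within 1.1-fold. In the catalytic F1 head, the alpha subunit Atp5a1 was 16834 in L-Lpcat3 KO and 16776 in Flox/Flox (0.005), while its other bright probe sets gave 0.08 and 0.15. The beta subunit Atp5b, which holds the catalytic sites, was 22732 in L-Lpcat3 KO and 26946 in Flox/Flox (-0.25). The alpha and beta subunits occur in equal number in the head, and Atp5b was read by 1 probe set, so its difference could not be compared with another. The central stalk genes had log2 ratios of -0.08 for Atp5c1 (23572 in L-Lpcat3 KO and 24887 in Flox/Flox), 0.12 for Atp5d (16157 in L-Lpcat3 KO and 14881 in Flox/Flox) and 0.11 for Atp5e (11459 in L-Lpcat3 KO and 10627 in Flox/Flox).

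In the membrane part, Atp5g1, Atp5g2 and Atp5g3 encode the same mature protein of the rotating c ring with different import sequences. Atp5g1 was 9364 in L-Lpcat3 KO and 8871 in Flox/Flox (0.08), Atp5g2 was 7091 in L-Lpcat3 KO and 6922 in Flox/Flox (0.03), and Atp5g3 was 30257 in L-Lpcat3 KO and 29039 in Flox/Flox (0.06). Atp5md, a small subunit (DAPIT) known for stabilizing dimers of the enzyme, was 13538 in L-Lpcat3 KO and 17599 in Flox/Flox. This was the lowest ratio of all OXPHOS genes with a signal of at least 1000 (-0.38), and it rests on 1 probe set. Atp5mpl, another small subunit, was level (6373 in L-Lpcat3 KO and 6353 in Flox/Flox). Atp5k, the e subunit at the dimer interface, had log2 ratios of 0.06, 0.26 and -0.04 over 3 bright probe sets. The peripheral stalk genes Atp5pb (-0.10), Atp5h (-0.05), Atp5j (0.04) and Atp5o (0.04) lay within 1.1-fold by their brightest probe sets, with -0.27 in the other probe set of Atp5o.

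Genes that build, feed or control the chain were compared alongside, from lists chosen with earlier results of these data known. Assembly factors outside the symbol rule had a median of -0.005 over 39 genes, with 3 at least 1.2-fold higher and 3 lower. Tmem70, needed to assemble ATP synthase, was 2230 in L-Lpcat3 KO and 1549 in Flox/Flox, 1.44-fold higher, and Sdhaf3, a factor of complex II assembly, was 1007 in L-Lpcat3 KO and 718 in Flox/Flox, 1.40-fold higher. At the low end were Dmac2l (-0.35) and Sdhaf1 (-0.32), the factor that helps to insert iron-sulfur clusters into Sdhb. The SD of log2 ratios in this list was 0.21.

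By the deposited signals, enzymes that deliver electrons had medians above 0. Medians of these related lists were not recomputed under other settings. Centring each array on its median log2 signal moved the median of all genes measured from 0.003 to -0.07. The sign of a median as small as that of the TCA cycle is therefore not settled. The other entries to ubiquinone, a list that also holds the transhydrogenase Nnt, had a median of 0.14 over 9 genes. By their brightest probe sets 8 were above 0, among them Nnt at 0.27, with -0.08 in its other bright probe set. Etfdh, which takes electrons from fatty acid oxidation, was 7986 in L-Lpcat3 KO and 6584 in Flox/Flox (0.28), and Gpd2, the mitochondrial glycerol 3-phosphate dehydrogenase, was 1056 in L-Lpcat3 KO and 819 in Flox/Flox (0.37), but its other probe sets gave -0.28 and -0.35. Chdh (-0.01) and Etfa (0.00) were lowest. TCA cycle genes had a median of 0.07 over 15 genes. Dlat, the acetyltransferase of pyruvate dehydrogenase, was at 0.39, with 0.24 and 0.01 in its other probe sets, and Suclg1 at 0.16. Mdh2 was at -0.18, with -0.05 in its other probe set, and Fh1 at -0.12. Coenzyme Q synthesis genes had a median of 0.02 over 12 genes, between -0.26 for Coq3 and Coq10a and 0.22 for Coq9, followed by Coq4 at 0.20.

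Carriers and regulators were mixed. The ADP, ATP and phosphate carriers had 7 of 11 genes measured and a median of -0.08. Slc25a5, a widely expressed adenine nucleotide carrier, was 25105 in L-Lpcat3 KO and 24583 in Flox/Flox (0.03), while Slc25a4, the form of heart and muscle, was 260 in L-Lpcat3 KO and 433 in Flox/Flox, 1.66-fold lower, with -0.52 and -0.13 in its other probe sets. Ucp3 was near the floor (-0.39), and Vdac2 (0.10) and Slc25a3 (0.06) were highest. Regulators of mitochondrial biogenesis had a median of 0.06 over 16 genes, with 10 above 0 and 1 past 1.2-fold. Ppargc1a, the coactivator PGC-1α, was 510 in L-Lpcat3 KO and 432 in Flox/Flox (0.24), and its other probe sets lay between -0.02 and 0.36. Tfb1m had a log2 ratio of 0.39 with -0.94 in a dim second probe set, and Mterf4 (-0.19) and Polrmt (-0.12) were lowest. Ribosomal proteins, a comparison for genes expressed in common across cells, had medians of 0.01 for 76 mitochondrial genes and -0.004 for 41 cytosolic genes. Their SDs were 0.122 for mitochondrial and 0.126 for cytosolic genes, compared with 0.131 for all 87 OXPHOS genes. Of the mitochondrial ribosomal genes 78.9% lay within 1.1-fold, and of the cytosolic ones 78.0%, so the narrow range of the OXPHOS genes is not particular to them.

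**Figure D5:**
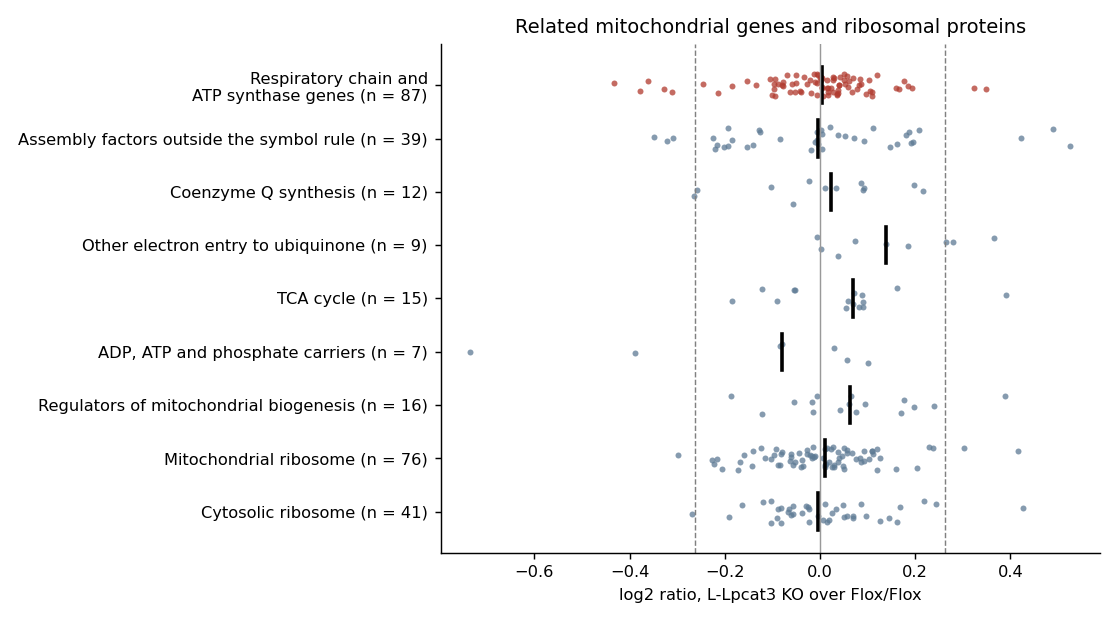
Log2 ratio (x axis, L-Lpcat3 KO to Flox/Flox) of measured genes in the OXPHOS set (red) and in 8 related lists (blue; y axis, number of genes in parentheses); 1 point per gene, black bars give medians, and the dashed lines stand at 1.2-fold. The median is 0.005 for OXPHOS genes and runs from -0.08 for carriers to 0.14 for other entries of electrons to ubiquinone.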

How the data were processed

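Total liver RNA was extracted with Trizol, pooled from 5 mice per genotype and hybridized to Affymetrix mouse arrays. Each deposited value is the signal intensity of a probe set, which the submitters' processing notes call MAS5. The methods name GeneSpring GX, and no software version is stated in the sources used here. The mean without the lowest and highest 2% of signals was 500.0 on both arrays. Of 45101 probe sets, 64 were controls, 34945 had 1 gene symbol in the platform annotation (updated by gene ID to RefSeq GRCm38.p6), 932 listed several genes and 9160 were unnamed here. All 184 OXPHOS probe sets matched RefSeq.

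Signals were floored at 76.4 and log2 transformed without further scaling, and each gene took its brightest probe set. With 1 array per genotype no test was run. Sizes of 1.2, 1.5 and 2.0-fold were counted. Genes named with values were Lpcat3, those past 1.5-fold, the 3 highest, 3 lowest and 2 brightest of each complex, redox and F1 subunits, c-ring genes and tissue isoforms with their partners, and the 2 highest and 2 lowest of other lists; further genes were named after their values were seen. Genes and lists were chosen with earlier results of these data known. Ratios and scalings were tested on simulated data. Alternatives covered scaling, floor, gene summary and symbols. Figures used matplotlib 3.10.9, loess used statsmodels 0.14.6, and all else ran in Python 3.11.15 with pandas 2.3.3 and numpy 2.4.6.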

Additional observations from a re-analysis of the deposited data

How the results depend on the processing

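No paired analysis was possible because each genotype had 1 array, and leaving out an array leaves no ratio. Over 11 planned settings and 2 chosen after seeing the data, the medians of all OXPHOS genes and of complexes I to IV and ATP synthase lay between -0.08 and 0.11, with shifts of up to 0.088. Signs of these medians are not stable. Centring each array on its median put the medians of all measured genes and of the OXPHOS genes at -0.07 and those of all 5 complexes below 0. The median of complex III was also below 0 with the mean over probe sets (-0.07), each probe set on its own (-0.05) and the second brightest probe sets (-0.06), and that of complex IV was above 0 under those settings (0.03, 0.00 and 0.02) and with loess (0.01). Of 212 values of 53 of the named OXPHOS genes under 4 of these settings, 8 moved by more than 0.115, the SD between probe sets of 1 gene. Each of the 8 moved under the mean over probe sets, and none of the 53 that was past 1.2-fold turned its direction. Other OXPHOS genes named with values were not in this count. Atp5o, 1 of them, was at 0.04 by its brightest probe set and at -0.11 by the mean over its probe sets. After centring, 16 OXPHOS genes had ratios above 0, 1 was 1.2-fold higher and 8 were 1.2-fold lower, and over all genes 36.1% of 1.2-fold differences were higher, compared with 53.3% as deposited. With the floor at the 25th percentile, 1 gene was 1.5-fold lower, and with the floor at the 75th percentile 0 were 1.2-fold higher. Without a floor, 4 were 1.2-fold higher, 8 lower, 1 was 1.5-fold higher and 2 lower. Counting each of 170 probe sets on its own, 94 were above 0, 7 were 1.2-fold higher (background 16.9%), 10 lower (15.5%) and 2 were 1.5-fold higher. That background is of mostly dimmer probe sets, as given above. By the second brightest probe sets of 48 genes, 27 were above 0, 3 were 1.2-fold higher, 2 were 1.2-fold lower and 1 was 1.5-fold higher. With genes of signal 1000 or more alone, 0 were 1.2-fold higher and 2 lower. Precision is limited by 1 array per genotype.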

Other observations

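A further 10 probe sets listed an OXPHOS gene together with another gene and were left out. Of these, 8 were above the floor in both pools, with log2 ratios between -0.31 and 0.20. Atpif1, which encodes the inhibitor that stops ATP synthase from running backward, falls outside the symbol rule and was looked up after the other values were seen. Its signal was 1207 in L-Lpcat3 KO and 1029 in Flox/Flox (log2 ratio 0.23), and its other probe sets were near or below the floor.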
